A study of Mus musculus with 6 samples.

Results

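The nuclear genes for the protein parts of the mitochondrial ribosome were followed in mouse hearts with and without a conditional deletion of Ythdc1. Members were all protein-coding genes whose symbol is Mrpl (large subunit) or Mrps (small subunit) followed by a number, which gave 78 of the 54532 genes in the deposited table, 49 of the large subunit and 29 of the small. They lie on 17 chromosomes. Of these, 77 reached a mean of 1 FPKM over the 6 libraries and were tested, and Mrpl53 was listed at 0 in every library. FPKM is the deposited level, scaled for gene length and for a total particular to each library. The groups were 3 Ythdc1 flox/flox hearts (flox control), which carry the floxed allele by their label, and 3 Ythdc1-CKO hearts. Mice of both groups received normal chow for 15 days. The labels describe the 3 samples of each group as independent biological replicates, and the p-values measure the spread between these samples. The promoter that drives the recombinase, the cell type deleted, the part of Ythdc1 removed, the age and the sex are not given in the sources used here, and the knockout is named HKO in the design text but CKO on the samples.

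The mitochondrial ribosome translates the few messenger RNAs encoded in mitochondrial DNA, all of which specify subunits of the oxidative phosphorylation complexes on which the beating heart relies for ATP. Its RNA parts come from mitochondrial DNA, while every protein part is encoded in the nucleus, made in the cytosol and imported. Some of these proteins descend from bacterial ribosomal proteins, and others are found only in mitochondrial ribosomes. YTHDC1 is a nuclear reader of N6-methyladenosine in RNA, with known roles in splicing and export of transcripts.

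RefSeq promoter windows on GRCm38.p6, running from 250 bases before to 50 bases after the annotated start, were matched by symbol for 69 of the 78 members (75 windows, as some genes have several starts). Up to 150 bases upstream that touch no annotated exon are printed for 7 members, 5′ to 3′ on the gene's own strand. Mrpl41, Mrpl3 and Mrpl42 are shown as the called members with such a stretch whose levels fell most in the comparison given further on. Mrpl9 is shown as the called member with an NRF1 core. Mrpl20, Mrps23 and Mrpl52 are the 3 members with a window in which every CKO library lay above every control, none of which passed the test. All 7 were chosen after their values were seen. Capitals mark an ETS core (CCGGAAG) or an NRF1 core (GCATGCGC) on either strand, and the capitals of Mrpl9 are overlapping matches to the NRF1 core, 1 on each strand.
Mrpl41: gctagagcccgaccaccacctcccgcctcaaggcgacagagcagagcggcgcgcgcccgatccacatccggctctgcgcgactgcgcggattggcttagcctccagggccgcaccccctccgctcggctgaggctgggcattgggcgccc
Mrpl3: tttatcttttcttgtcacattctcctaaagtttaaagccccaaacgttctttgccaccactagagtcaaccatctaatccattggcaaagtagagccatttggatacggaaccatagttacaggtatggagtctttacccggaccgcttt
Mrpl42: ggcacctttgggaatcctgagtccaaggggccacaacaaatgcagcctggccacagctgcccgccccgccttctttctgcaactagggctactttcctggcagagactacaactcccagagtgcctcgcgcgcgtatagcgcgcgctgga
Mrpl9: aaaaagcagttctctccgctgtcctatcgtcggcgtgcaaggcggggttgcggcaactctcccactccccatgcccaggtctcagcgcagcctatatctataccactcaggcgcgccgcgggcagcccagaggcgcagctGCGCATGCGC
Mrpl20: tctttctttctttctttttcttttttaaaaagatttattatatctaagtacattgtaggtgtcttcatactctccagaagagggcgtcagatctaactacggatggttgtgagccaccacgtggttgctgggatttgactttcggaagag
Mrps23: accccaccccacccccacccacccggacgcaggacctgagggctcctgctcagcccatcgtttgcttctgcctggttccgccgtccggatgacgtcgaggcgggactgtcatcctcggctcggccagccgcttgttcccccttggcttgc
Mrpl52: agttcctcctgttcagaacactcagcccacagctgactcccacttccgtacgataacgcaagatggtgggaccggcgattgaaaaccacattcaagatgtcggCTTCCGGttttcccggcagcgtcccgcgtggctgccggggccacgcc

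The stretches are chr2:24975099-24975248 (Mrpl41, minus strand), chr9:105053089-105053238 (Mrpl3, plus), chr10:95501950-95502099 (Mrpl42, minus), chr3:94443168-94443317 (Mrpl9, plus), chr4:155802728-155802877 (Mrpl20, plus), chr11:88204238-88204387 (Mrps23, plus) and chr14:54426759-54426908 (Mrpl52, plus). The stretches of Mrpl41, Mrpl3, Mrpl42, Mrpl20 and Mrps23 hold neither core, and the ETS cores of Mrpl3 and Mrps23 lie in the window outside the stretch printed. The window of Mrpl20 holds no ETS core. The ETS core, bound by factors such as GABP, occurred in the windows of 26 of 69 members (37.7%), against 20.7% of the 8563 tested protein-coding genes with a window. The NRF1 core occurred in 8 members (11.6%) against 6.24%, and a YY1 motif (AAGATGGC) in 12 members (17.4%) against 5.51%. The TATA letters TATAAA, searched on both strands like the others, occurred in 5 members (7.25%) against 8.64%. Of the 15 members with a window whose log2 fold change was above 0, 11 held the ETS core, compared with 14 of the 53 whose log2 fold change was below 0 and with 2 of the 8 that were called lower. These counts were made after the fold changes were known, carry no test, and describe letters in the window only.

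The recovered depth was 17434296 to 19360428 reads per library, and each tested member had between 229 and 3880 reads in a library. The total by which the deposited FPKM is divided was not this depth. It was 1.95e+07 against 17872221 reads in CKO 2 and 1.81e+07 against 19360428 reads in CKO 3. FPKM summed over all genes ran from 351431 in CKO 2 to 461435 in CKO 3. Ythdc1 measured 4.31, 3.64 and 4.10 FPKM in flox controls 1 to 3 and 2.39, 2.57 and 2.34 FPKM in CKO 1 to 3, a CKO mean 0.607 times the control mean (log2 fold change -0.54, SE 0.09, limma adjusted p = 0.015). That call was lost without flox control 1 (0.0707), flox control 3 (0.0637) or CKO 3 (0.0535). CKO 3 held 4037 reads of Xist and 33 of the Y-linked Ddx3y, while the other libraries held at most 5 and at least 1004. Defining heart muscle genes were high throughout: the summed level of 7 cardiomyocyte markers was 9355 to 10036 FPKM in control hearts and 7237 to 9753 in CKO, with Tnni3 alone called (lower). Of these 7, 6 had a log2 fold change below 0 and 1 above, with a median of -0.28. Every CKO library lay below every control for 3 of them, against 17.4% of all tested genes. Summed fibroblast markers were 476 to 615 against 546 to 789 FPKM, with 1 of 7, Tcf21, called higher. Every CKO library lay above every control for 4 of the 7, against 16.9% of all tested genes, while 2 had a log2 fold change below 0. Summed endothelial markers were 430 to 514 against 417 to 474 FPKM and summed pericyte and smooth muscle markers 261 to 298 against 183 to 268 FPKM, with 1 called lower in each (Tie1 and Abcc9). Every CKO library lay below every control for 3 of 7 endothelial and 2 of 6 pericyte and smooth muscle markers. Of 5 atrial markers, summing to 153 to 407 FPKM in control hearts and 548 to 2100 FPKM in CKO, Nppa was called higher (CKO mean 9.38 times the control mean) and Sln lower (0.1 times). Myl4 and Myl7 lay lower in every CKO library without passing (0.175 and 0.229 times), and Bmp10 overlapped and was listed at 0 in flox control 2. Summed macrophage markers were 565 FPKM in CKO 1 and 51.4 to 145 in the other libraries, with none of the 6 tested called by limma or voom or at an unadjusted p under 0.05. Red blood cell markers summed to 744 to 1148 against 656 to 1309 FPKM, with none of 5 called by either test or at an unadjusted p under 0.05. The part of these values in the results on the ribosomal genes was not tested.

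More of these genes were called lower than higher in CKO hearts. Genes were tested with limma on log2(FPKM + 1) and called at an adjusted p under 0.05, which called 11.2% of all 12144 tested genes, 5.49% lower and 5.69% higher. Among the 77 tested members, 10 were called lower (13.0%) and 1 higher (1.30%), and 66 did not pass. The median log2 fold change over the tested members was -0.23, with quartiles of -0.34 and -0.03, against a median of 0.01 over all tested genes. The log2 fold change was below 0 for 60 members and above 0 for 17. Every CKO library lay below every flox control for 30 members (39.0%; 17.4% of all tested genes), and every CKO library lay above for 4 members (5.19%; 16.9% of all tested genes). In hearts sequenced whole, fewer cells of a type and less RNA per cell cannot be told apart.

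**Figure D1:**
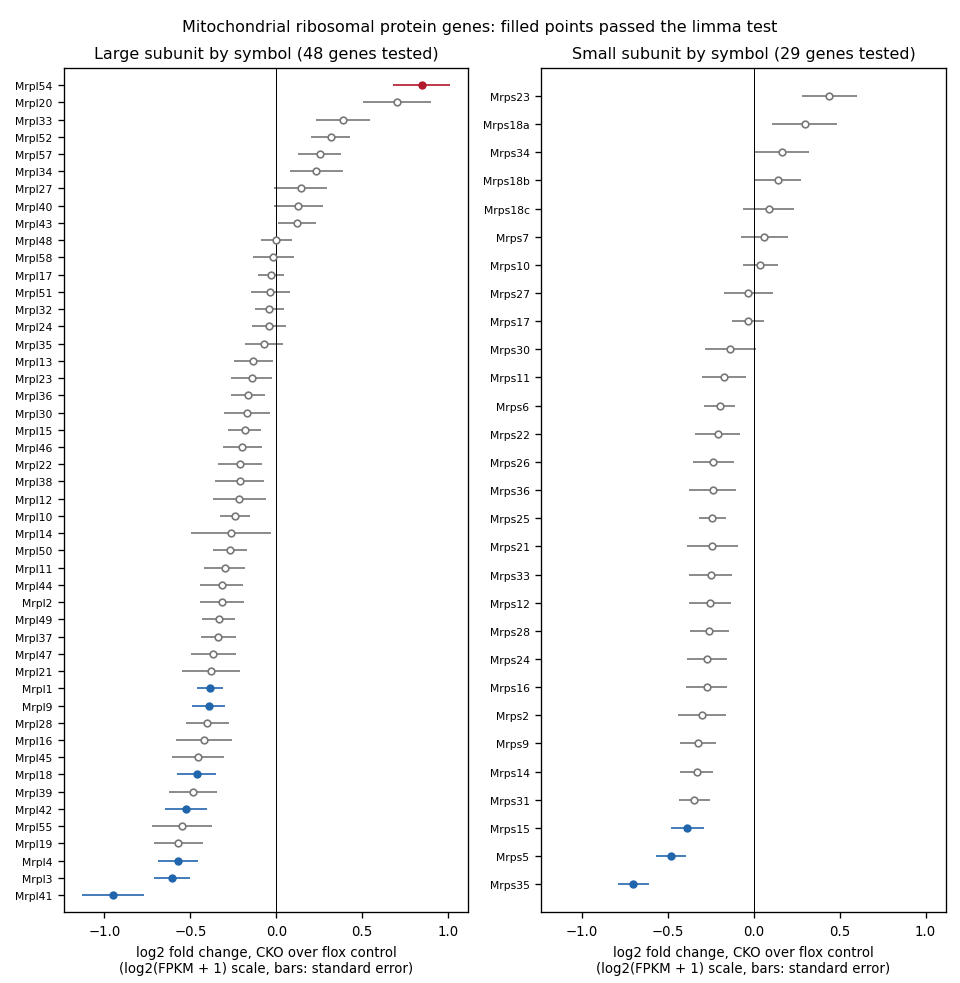
Log2 fold change of CKO over flox control for each tested member (points, horizontal axis, on the log2(FPKM + 1) scale) with its standard error (bars), sorted within the large (left) and small (right) subunit. Blue filled points are the 10 members called lower, the red filled point is Mrpl54, the 1 called higher, and open points did not pass; most points lie left of 0.

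Single libraries stood out across the members. Flox control 2 had the highest control value for 72 of the 77 members, and CKO 3 the highest CKO value for 57. Without flox control 2 the median log2 fold change was -0.15 and 54 members were below 0; without the other libraries in turn the median lay between -0.28 and -0.19. The count called lower was 1 without flox control 1, 2 or 3, 5 without CKO 1, 3 without CKO 2 and 2 without CKO 3. In the first 3 of these fits 1.30% of members were called lower, against 1.28, 2.45 and 1.89% of all tested genes, and without CKO 3 2.597% against 2.50%, so that the members' share was near or below that of all genes. It was 6.49% against 5.62% without CKO 1 and 3.90% against 2.82% without CKO 2. After the libraries were rescaled to TPM, which sets the same sum for each library,, Mrpl41 and Mrps35 were called lower and Mrpl54 higher, with 53 members below 0. The share called lower was then 2.597% of members and 3.02% of all tested genes, and Ythdc1 itself did not pass on that scale (limma adjusted p = 0.0944).

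Mrps35, a protein of the small subunit with no bacterial counterpart, held its call under all 18 alternatives tried. Its gene (ENSMUSG00000040112, chr6:147042764-147073991, plus strand, GRCm38) measured 7.68, 8.79 and 7.73 FPKM in flox controls 1 to 3 and 4.46, 4.34 and 4.92 FPKM in CKO 1 to 3. The 3 CKO libraries lay close together and well below the lowest control. The group averages were 8.07 ± 0.63 and 4.58 ± 0.307 FPKM (SD, n = 3 each, model test by limma), which is 43.3% lower in CKO (log2 fold change -0.70, SE 0.09, limma adjusted p = 0.00816). Over the 18 alternatives the limma adjusted p stayed between 0.00644 and 0.0382.

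The largest fall among the tested members was that of Mrpl41, a large-subunit protein found only in mitochondrial ribosomes (chr2:24974117-24975098, minus strand). It measured 45.5, 60.4 and 47.1 FPKM in control hearts and 22.5, 23.2 and 32.7 FPKM in CKO. CKO 1 and 2 were nearly equal and CKO 3 stood higher, still below all controls. The mean fell by 48.8%, from 51.002 ± 8.18 to 26.1 ± 5.71 FPKM (log2 fold change -0.95, SE 0.18, limma adjusted p = 0.0242). Among the members it ranked 11, 8 and 9 by FPKM in the controls and 29, 26 and 18 in CKO. The call was lost without flox control 1 (limma adjusted p = 0.0699), flox control 2 (0.0696), flox control 3 (0.0686) or CKO 2 (0.0708).

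Mrpl3, in which human mutations are known to cause a mitochondrial cardiomyopathy, belongs to the conserved core of the large subunit near the site of peptide bond formation (chr9:105053239-105079888, plus strand). It measured 15.1, 17.2 and 14.6 FPKM in control hearts and 8.88, 10.7 and 10.2 FPKM in CKO. The groups were well apart, with CKO 1 lowest. The mean was 36.4% lower in CKO, 15.6 ± 1.40 against 9.92 ± 0.931 FPKM (log2 fold change -0.60, SE 0.11, limma adjusted p = 0.0186). The call was lost without flox control 1 (limma adjusted p = 0.0699), flox control 2 (0.0571), flox control 3 (0.0525) or CKO 3 (0.0537).

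Mrps5 has a bacterial counterpart at the path by which messenger RNA enters the small subunit (chr2:127587222-127606829, plus strand). It measured 7.499, 8.07 and 7.92 FPKM in control hearts and 5.02, 5.91 and 5.11 FPKM in CKO. All 3 CKO libraries lay below the controls. The mean was 31.7% lower in CKO (log2 fold change -0.48, SE 0.09, limma adjusted p = 0.0212). The call was lost without flox control 1 (limma adjusted p = 0.0714), flox control 2 (0.0679), flox control 3 (0.0781) or CKO 3 (0.0679).

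Mrpl1 forms the mobile stalk beside the site where spent transfer RNA leaves (chr5:96209493-96266727, plus strand). It measured 7.88, 7.42 and 7.38 FPKM in control hearts and 5.50, 5.80 and 5.33 FPKM in CKO, with narrow groups that did not overlap. The log2 fold change was -0.39 (SE 0.08, limma adjusted p = 0.0258). The call held without CKO 1 but was lost without flox control 1 (limma adjusted p = 0.107), flox control 2 (0.0678), flox control 3 (0.0806), CKO 2 (0.0517) or CKO 3 (0.08).

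Mrpl4, whose bacterial counterpart lines the exit tunnel of the growing chain, measured 41.8, 47.5 and 37.2 FPKM in control hearts and 26.6, 27.2 and 30.1 FPKM in CKO (chr9:21002738-21008839, plus strand). Flox control 2 was highest and the CKO libraries were close together below all controls (log2 fold change -0.57, SE 0.12, limma adjusted p = 0.0298). Mrpl42, a mitochondria-specific protein of the large subunit, measured 51.7, 59.9997 and 46.3 FPKM against 35.3, 34.2 and 38.7 FPKM (chr10:95480805-95501940, minus strand). Its groups did not overlap and its CKO values were again the tighter set (log2 fold change -0.53, SE 0.12, limma adjusted p = 0.0419). These were more abundant members, so that the fall of Mrpl42 was from a mean of 52.7 to 36.1 FPKM. Leaving out any single library, flox control 1, 2 or 3 or CKO 1, 2 or 3, ended the call of both: the limma adjusted p for Mrpl4 was then 0.108, 0.0768, 0.0513, 0.0564, 0.0805 and 0.0595 in that order. For Mrpl42 it was 0.131, 0.0985, 0.0643, 0.0738, 0.107 and 0.0749.

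The 3 called members with the largest adjusted p were all of bacterial descent. Mrpl9, a large-subunit protein, measured 25.3, 27.8 and 24.9 FPKM in control hearts and 18.1, 19.8 and 20.7 FPKM in CKO (log2 fold change -0.39, SE 0.09, limma adjusted p = 0.0446; chr3:94443318-94451130, plus strand). Mrpl18, whose bacterial counterpart binds 5S ribosomal RNA, measured 51.4, 63.0 and 52.7 FPKM against 41.5, 37.8 and 40.9 FPKM (log2 fold change -0.46, SE 0.11, limma adjusted p = 0.0473; chr17:12911349-12916345, minus strand). Mrps15, whose bacterial counterpart binds ribosomal RNA early in assembly of the small subunit, measured 28.8, 30.6 and 25.7 FPKM against 21.7, 20.7 and 21.8 FPKM (log2 fold change -0.39, SE 0.10, limma adjusted p = 0.0486; chr4:126046925-126055532, plus strand). In all 3 genes the groups did not overlap, and each lost its call when any single library was left out. The limma adjusted p without flox control 1, 2 and 3 and CKO 1, 2 and 3 was 0.131, 0.118, 0.106, 0.0855, 0.0962 and 0.0782 for Mrpl9. For Mrpl18 it was 0.11, 0.108, 0.108, 0.0669, 0.118 and 0.104. For Mrps15 it was 0.161, 0.124, 0.0748, 0.0767, 0.117 and 0.107. The opposite-strand gene Tcp1 covers 10.1% of the exon bases of Mrpl18, and strand marking of the libraries is not described, so that reads in that stretch cannot be assigned to one of the 2 genes.

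Just outside the threshold, Mrpl19, a large-subunit protein, measured 3.87, 5.83 and 4.92 FPKM in control hearts and 2.82, 3.36 and 2.62 FPKM in CKO (log2 fold change -0.57, limma adjusted p = 0.052). Its groups did not overlap either. Exons of Gcfc2 on the opposite strand cover 36.0% of its exon bases, and Gcfc2 measured a mean of 0.55 and 0.519 FPKM in the groups.

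Against this direction, Mrpl54, a mitochondria-specific protein of the large subunit, was the 1 member called higher (chr10:81264713-81266934, minus strand). It measured 38.8, 47.1 and 42.1 FPKM in control hearts and 76.1, 63.7 and 94.7 FPKM in CKO. The lowest CKO library, CKO 2, lay above the highest control. The CKO mean was 1.83 times the control mean, 42.6 ± 4.17 against 78.2 ± 15.6 FPKM (log2 fold change 0.85, SE 0.16, limma adjusted p = 0.0253). By FPKM it ranked 17, 16 and 12 among the members in the controls and 3, 4 and 3 in CKO. The call was lost without flox control 1 (limma adjusted p = 0.104), flox control 2 (0.0581), flox control 3 (0.084) or CKO 3 (0.0531). Apba3, which starts 26 bases away in the other direction, had a log2 fold change of -0.20 (limma adjusted p = 0.219).

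**Figure D2:**
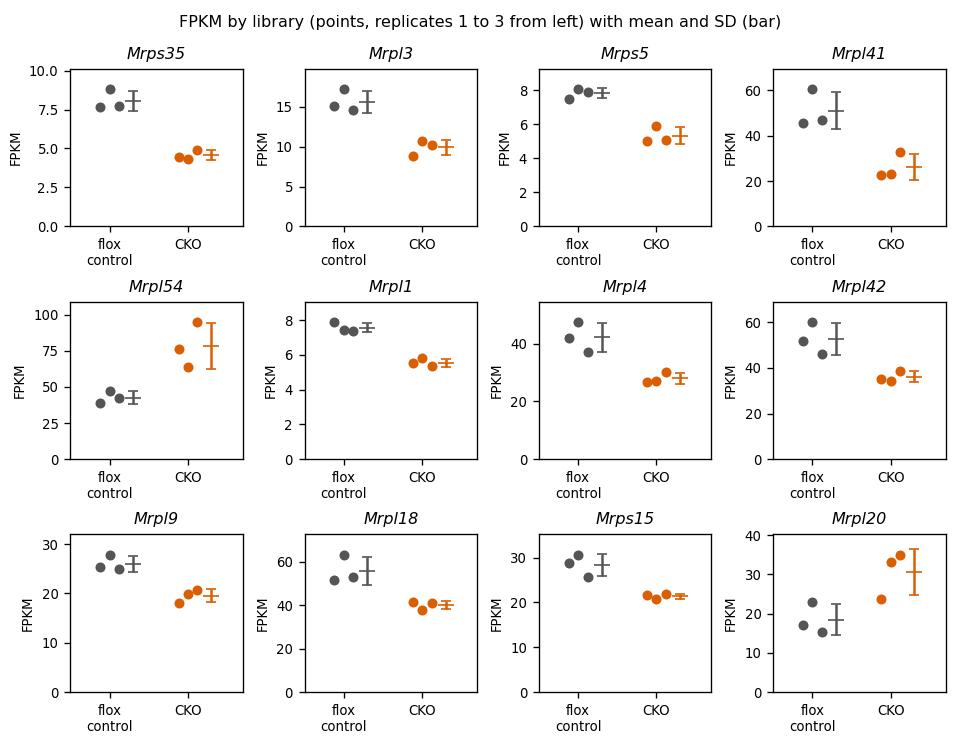
FPKM in each library (points, replicates 1 to 3 from left; vertical axes from 0) with the mean and SD beside them, for the 11 called members in order of adjusted p and for Mrpl20. In the 10 members called lower every CKO point lies below every control point, and in Mrpl54 and Mrpl20 every CKO point lies above.

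Mrpl20, whose bacterial counterpart acts early in assembly of the large subunit, measured 17.0, 22.9 and 15.4 FPKM in control hearts and 23.8, 33.0 and 34.9 FPKM in CKO. CKO 1 lay just above flox control 2, and the difference did not pass (log2 fold change 0.70, SE 0.20, limma adjusted p = 0.0677). Without CKO 1 it passed, with a log2 fold change of 0.87 (limma adjusted p = 0.0291). Mrps23, a mitochondria-specific protein of the small subunit, measured 79.1, 88.0 and 70.4 FPKM against 98.0, 95.8 and 132 FPKM and did not pass (log2 fold change 0.44, limma adjusted p = 0.134). Both passed, with limma adjusted p of 0.0377 and 0.0457, when the libraries were scaled to the same sum over nuclear protein-coding genes, which brought the count called higher to 3. Mrpl52, named after its values were seen, was the remaining member with every CKO library above the controls, at 22.6, 29.6 and 26.5 FPKM against 32.8, 33.3 and 32.0 FPKM (limma adjusted p = 0.135).

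Large and small subunit genes had similar changes. Of all tested genes 5.49% were called lower and 5.69% higher. Of 48 large-subunit genes tested, 7 were called lower (14.6%) and 1 higher (2.08%), with a median log2 fold change of -0.21, and 38 were below 0. Of 29 small-subunit genes, 3 were called lower (10.3%) and none higher by limma or voom (1 at an unadjusted p under 0.05), with a median of -0.24, and 22 were below 0. The medians differed by 0.02 on the log2 scale, and whether the subunits differ was not tested. The sign of the difference turned when flox control 3 (-0.03), CKO 1 (-0.03), CKO 2 (-0.01) or CKO 3 (-0.01) was left out. A separate measure, the median log2 level of large minus small subunit genes within each library, was 0.755, 0.625 and 0.780 in the controls. In CKO it was 0.654, 0.819 and 0.877, so that the groups overlapped. Symbols do not match structure in every case. Mrps30 and Mrps18a are known to sit in the large subunit and Mrps36 to belong to the 2-oxoglutarate dehydrogenase complex. Their log2 fold changes were -0.14, 0.30 and -0.24 (limma adjusted p = 0.604, 0.358 and 0.311), and with the first pair counted as large and Mrps36 left out the medians differed by 0.03. The Mrps18 paralogs Mrps18b and Mrps18c had log2 fold changes of 0.14 and 0.09 (limma adjusted p = 0.544 and 0.756).

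Summed over all members, the level was 1842, 2188 and 1767 FPKM in control hearts and 1689, 1655 and 1930 FPKM in CKO. The sums overlapped, since CKO 3 exceeded flox controls 1 and 3. The large-subunit sum was 2.14, 2.23 and 2.19 times the small-subunit sum in the controls and 2.16, 2.07 and 2.05 times in CKO, which also overlapped. The 5 most abundant members of each library held 21.1, 21.6 and 20.7% of the summed FPKM in the controls and 25.1, 25.3 and 27.1% in CKO, without overlap and as a description only. The 5 were taken anew in each library and are not a fixed set: Mrpl54 was among them in every CKO library and in no control.

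**Figure D3:**
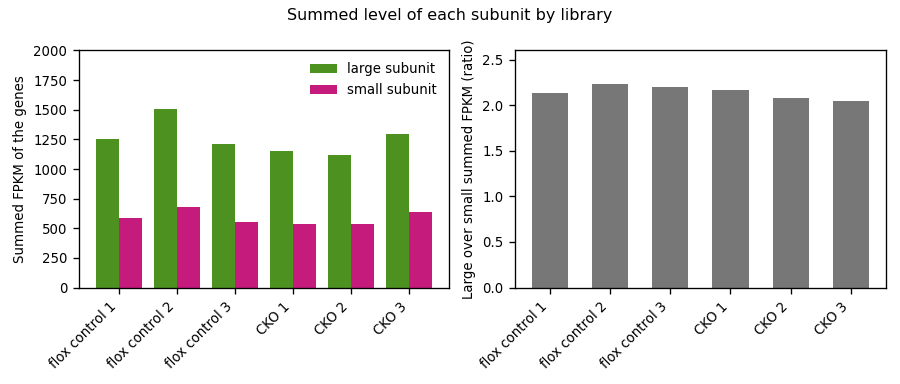
Left, summed FPKM of the large-subunit (green) and small-subunit (pink) genes in each library; right, the ratio of the 2 sums in each library, both axes from 0. Flox control 2 has the highest sums, and the ratio lies between 2.05 and 2.23 in all 6 libraries.

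Levels of the members spanned 38.6-fold by mean FPKM over the 6 libraries. FPKM divides by the deposited gene length, which exceeded the longest annotated coding transcript more than 2 times for 18 members (up to 15.3 times), so that their place in the order depends on the length used. Mrpl34, a small basic protein of bacterial descent in the large subunit, had the highest deposited FPKM in every library. It stood at 117 ± 22.1 FPKM in control hearts and 136 ± 9.75 FPKM in CKO (SD, n = 3 each; limma adjusted p = 0.383). Scaled to the longest coding transcript instead, the mean over the 6 libraries was 126 for Mrpl34, below Mrpl33 (142) and Mrpl42 (245). The order below is that of the deposited FPKM. Mrps23 and Mrps21 led the small subunit, and Mrps21 had 86.6 ± 9.47 and 73.3 ± 11.5 FPKM, groups that overlapped. Mrpl12, which recruits translation factors at the stalk, followed in the large subunit at 69.5 ± 11.8 and 59.4 ± 6.89 FPKM (limma adjusted p = 0.416). Mrps28 had 49.3 ± 3.61 and 41.1 ± 4.22 FPKM. The least abundant tested members were Mrpl19, Mrpl17 (4.54 ± 0.110 and 4.42 ± 0.203 FPKM) and Mrpl32 (5.12 ± 0.433 and 4.95 ± 0.182 FPKM) in the large subunit. In the small subunit they were Mrps10 (3.22 ± 0.380 and 3.33 ± 0.318 FPKM), Mrps30 (3.97 ± 0.822 and 3.49 ± 0.444 FPKM) and Mrps25 (4.29 ± 0.257 and 3.48 ± 0.124 FPKM). None of these low members was called.

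By descent, 46 members have counterparts in bacterial ribosomes, and 7 of them were called lower (15.2%, against 5.49% of all tested genes) and none higher by limma or voom (2 at an unadjusted p under 0.05; 5.69% of all tested genes called), with a median log2 fold change of -0.25. Of 31 mitochondria-specific members 30 were tested, and 3 were called lower (10%, against 5.49% of all tested genes) and 1 higher (3.33%, against 5.69%). Their median log2 fold change was -0.20, with 10 above 0. Whether the 2 classes differ was not tested.

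Position and overlap were examined because strand cannot be told in these libraries. Exons of 28 members overlap exons of a gene on the opposite strand, and in 13 the overlap exceeds 10% of the member's exon bases. Of the 27 tested members with such an overlap 3 were called lower (11.1%), with a median log2 fold change of -0.20. Among the 50 without it 7 were called lower (14.0%) and 1 higher (2.0%), with a median of -0.25. The shares of all tested genes were 5.49% lower and 5.69% higher. The start of a gene running the other way lies within 1000 bases of the start of 20 members. Mrpl53 (chr6:83109040-83109939, plus strand), the member listed at 0, shares 88.0% of its exon bases with Gm42688 on the same strand, which was listed at a mean of 0.341 FPKM in control hearts and 0.239 FPKM in CKO. The part of this overlap in the 0 was not tested. The 8 processed pseudogenes of members reached at most 1.58 FPKM in any library.

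Genes that serve this ribosome were called lower in several lists chosen for their roles, and none in them was called higher by limma or voom or had a higher level at an unadjusted p under 0.05. Of all tested genes 5.49% were called lower. Of 26 tested genes for assembly of the mitochondrial ribosome and modification of its RNA, 8 were called lower (30.8%; 22 below 0, median log2 fold change -0.27). Mrm3, which methylates the large ribosomal RNA, measured 8.10, 10.7 and 8.94 FPKM in control hearts and 3.77, 3.98 and 3.08 FPKM in CKO (log2 fold change -1.15, limma adjusted p = 0.00607). Mrm2, a second methyltransferase of that RNA, measured 5.98, 8.09 and 7.20 FPKM against 3.32, 3.03 and 3.86 FPKM (log2 fold change -0.87, limma adjusted p = 0.0112). Both held under all alternatives, and their groups did not overlap. Mettl15, which methylates the small ribosomal RNA, had a log2 fold change of -0.59 (limma adjusted p = 0.0172) and lost its call without flox control 1 (0.0777), flox control 2 (0.0541), flox control 3 (0.0593) or CKO 2 (0.0509). Mettl17, an assembly factor of the small subunit, had a log2 fold change of -0.43 (limma adjusted p = 0.0332) and kept its call on leaving out a library only without CKO 1 (0.125, 0.0926, 0.0825, 0.0701 and 0.0861 without flox control 1, 2 and 3 and CKO 2 and 3). It did not pass after rescaling to TPM (0.207).

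Of 14 translation factors, 4 were called lower (28.6%; 12 below 0, median -0.25). Mtif2, the initiation factor, measured 13.7, 13.7 and 13.9 FPKM in control hearts and 8.05, 9.02 and 9.03 FPKM in CKO (log2 fold change -0.61, limma adjusted p = 0.00929) and kept its call whichever library was left out. Tufm, the elongation factor Tu that brings charged transfer RNA to the ribosome, measured 135, 152 and 114 FPKM against 78.5, 89.2 and 92.1 FPKM (log2 fold change -0.61, limma adjusted p = 0.0405). Oxa1l, the insertase that receives new chains at the inner membrane, and Taco1, an activator of translation of cytochrome oxidase subunit I, had log2 fold changes of -0.43 and -0.66 (limma adjusted p = 0.0304 and 0.0365). Without single libraries the limma adjusted p ran from 0.0593 to 0.136 for Tufm and from 0.0568 to 0.111 for Oxa1l, and each library ended the call. Taco1 kept its call only without flox control 3 (0.0671 to 0.125 without the others). None of these 4 passed after rescaling to TPM (limma adjusted p of 0.065 for Mtif2, 0.0803 for Tufm, 0.189 for Oxa1l and 0.0707 for Taco1).

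Of 20 mitochondrial genes for charging transfer RNA, 4 were called lower (20.0%; 17 below 0, median -0.27). Mars2, for methionine, measured 1.72, 2.02 and 2.003 FPKM in control hearts and 0.326, 0.501 and 0.494 FPKM in CKO (log2 fold change -1.02, limma adjusted p = 0.00665) and held under the 17 alternatives that tested it, its level being under the stricter minimum of 5 FPKM. Vars2, for valine, Qrsl1, a subunit of the amidotransferase for glutamine, and Fars2, for phenylalanine, had log2 fold changes of -0.64, -0.50 and -0.34 (limma adjusted p = 0.0111, 0.0204 and 0.0435). Vars2 lost its call without flox control 1 (0.0509), Qrsl1 without flox control 1, 2 or 3 or CKO 3 (0.0628 to 0.0712), and Fars2 without each of the 6 libraries (0.0629 to 0.124). Ptcd3, a small-subunit protein whose symbol the naming rule does not take, was the 1 called lower of 5 such genes (log2 fold change -0.57, limma adjusted p = 0.038, and 0.0532 to 0.131 without each of the 6 libraries). That is 20.0% of the 5 genes, of which 3 were below 0, with a median nearer 0 than in the lists above (-0.05). Tefm, the elongation factor of mitochondrial transcription, was the 1 called of 9 tested genes for transcription and RNA stability (log2 fold change -0.62, limma adjusted p = 0.015, and 0.0516 to 0.0598 without flox control 1, 2 or 3 or CKO 3). That is 11.1% of the 9 genes, of which 6 were below 0, with a median of -0.13. After rescaling to TPM, Qrsl1, Fars2, Ptcd3 and Tefm did not pass (limma adjusted p of 0.164, 0.243, 0.116 and 0.0975).

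The ribosomal RNAs made in the mitochondrion were called lower as well, in libraries selected for poly(A). The large one, mt-Rnr2, measured 2552, 1454 and 1896 FPKM in control hearts and 1092, 622 and 822 FPKM in CKO (limma adjusted p = 0.045), and the small one, mt-Rnr1, 1350.4, 782 and 1287 FPKM against 603, 205 and 306 FPKM (limma adjusted p = 0.0467). Both calls held without CKO 1 and were lost when any other library was left out (0.0634 to 0.143 for mt-Rnr2 and 0.0728 to 0.153 for mt-Rnr1). None of the 13 mitochondrial messenger RNAs in the same list was called by limma or voom (mt-Nd3, named after its values were seen, was lower at an unadjusted p under 0.05).

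**Figure D4:**
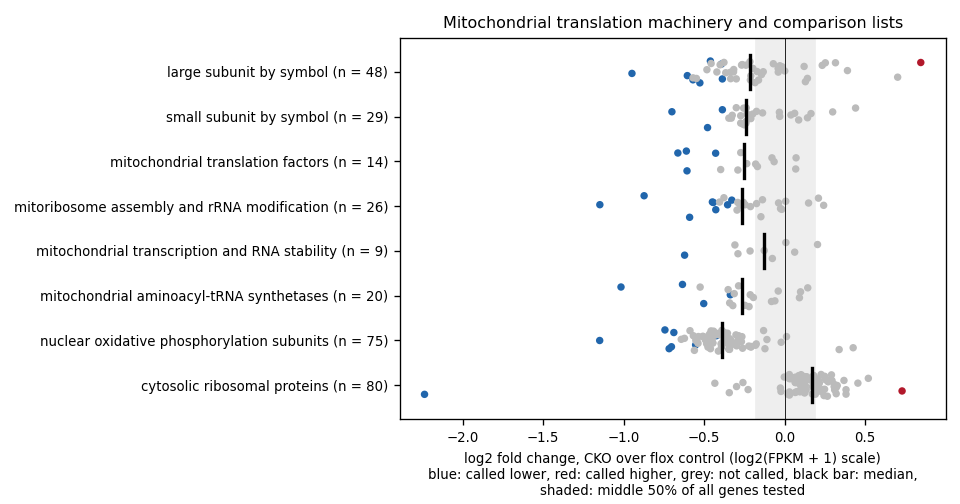
Log2 fold change of CKO over flox control (horizontal axis, log2(FPKM + 1) scale) for every tested gene of each list, with called genes in blue (lower) or red (higher), other genes in grey, the list median as a black bar and the middle 50% of all tested genes shaded. The medians of both subunits and of translation factors, assembly factors and synthetases lie between -0.27 and -0.21. That of transcription and RNA stability lies at -0.13, that of nuclear oxidative phosphorylation subunits at -0.39 and that of cytosolic ribosomal proteins at 0.17.

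Nuclear subunits of the oxidative phosphorylation complexes, the partners of the proteins this ribosome makes, were below 0 for 72 of 75 tested genes, with a median log2 fold change of -0.39 and 7 called lower (9.33%). Of all 12144 tested genes 5940 were below 0 and 5.49% were called lower. The 4 with the smallest p were Ndufs1 (log2 fold change -0.72), Sdhc (-0.55), Cox7a1 (-1.15) and Uqcrc1 (-0.69), of complexes I, II, IV and III, with limma adjusted p of 0.0259, 0.0348, 0.0361 and 0.0406. Each lost its call without flox control 1, 2 or 3 (0.0705 to 0.139) and also without CKO 2 (Ndufs1, 0.0726), without CKO 3 (Cox7a1, 0.072), without each CKO library (Sdhc, 0.0553 to 0.083) or without CKO 1 or 2 (Uqcrc1, 0.0727 and 0.0929). Of 80 tested genes for cytosolic ribosomal proteins 1 was called higher and 1 lower, and 78 did not pass. Their log2 fold change was above 0 for 71 and had a median of 0.17, and every CKO library lay above the controls for 8 of them, against 16.9% of all tested genes. Rpl3l, the striated-muscle form of Rpl3, fell from 44.999, 38.2 and 34.0 FPKM to 10.5, 4.60 and 8.36 FPKM (log2 fold change -2.24, limma adjusted p = 0.00671) and held under all alternatives. Rps27 rose from 103, 84.7 and 87.2 FPKM to 165, 138 and 154 FPKM (log2 fold change 0.73, limma adjusted p = 0.0194), a call lost without flox control 1 (0.0519), flox control 2 (0.0666), flox control 3 (0.0772) or CKO 3 (0.0574). The difference between these lists and the mitochondrial ribosomal genes was not tested.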

How the data were processed

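Heart RNA of 6 mice was sequenced after poly(A) selection with random-hexamer priming, per the labels' protocols. The authors deposited FPKM for 54532 genes, 1 column per library. The submitters' processing notes name CASAVA, HISAT2 2.0.5, featureCounts 1.5.0-p3, DESeq2 1.20.0 and the build GRCm38.p6. Values were multiplied by gene length and divided by a step estimated for each library from the values themselves. After this, 100% fell on whole numbers of reads (tolerance 0.001). Limma 3.58.1 in R 4.3.3 was fitted to log2(FPKM + 1) over the 12144 genes that averaged 1 FPKM or more, using a variance trend, a genotype term alone and Benjamini-Hochberg adjustment (2-sided, threshold 0.05); fold changes on this scale understate low genes. The procedure was tested on simulated data in which the planted changes were larger than that of any called member. Smaller changes were not simulated. Voom with limma on the recovered reads, an alternative, called 1427 genes. Members, lists and tests were chosen with earlier results of these data known. Named genes are Ythdc1, the called members and the next by p up to 12, the 3 largest changes each way, the 3 most and least abundant per subunit, members placed elsewhere by structure or role, and up to 4 called genes per list. Replicate numbers were not used to pair samples. Annotation came from GENCODE M21 and promoters from RefSeq. Figures used matplotlib 3.10.9.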

Additional observations from a re-analysis of the deposited data

How the results depend on the processing

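Of 10 members called lower and 1 higher, the counts were 4 and 0 with no filter on low values, 2 and 1 after rescaling to TPM or to the same sum over the tested genes, and 9 and 3 with scaling to nuclear protein-coding genes. The share called lower was 5.19% of members against 1.52% of all tested genes with no filter, and 11.7% against 4.93% with nuclear scaling. It was 2.597% of members with TPM and with the same sum, below the 3.02% and 3.49% of all tested genes. The share called higher was below that of all tested genes in each of these settings. At an adjusted p under 0.1, 19 were called lower, but the share of all tested genes at that threshold was not counted, so this count has no background. Leaving out 1 library gave 1 to 5 lower and 0 to 2 higher; each of these fits also tested with fewer samples. The median difference between large and small subunit then ran from -0.0297 to 0.0446, and it was below 0 without flox control 3 (-0.026), CKO 1 (-0.0297), CKO 2 (-0.00639) and CKO 3 (-0.00526). The other pseudocounts, variance models, gene sets and the read-based test gave 10 or 11 lower and 1 higher. Each of the 11 called members kept its sign under all 18 alternatives, and 10 lost the call under at least 1. The groups of these 11 did not overlap, so only a rescaling of the libraries could have turned a sign. For the other alternatives the kept sign carries no information. Signs turned for Mrpl17 with TPM (0.0151) and the same sum (0.0145), for Mrpl32 with TPM (0.00513), the same sum (0.00525) and without flox control 2 (0.0118; -0.0900 to 0.0118 over single libraries), and for Mrps10 without flox control 1 (-0.000195) or CKO 3 (-0.0211; -0.0211 to 0.112 over single libraries); the cause was not tested. Same-numbered samples were not paired by the labels, and their deviations correlated at 0.139, 0.0597 and -0.00548, with flox control 3 closest to CKO 2 (0.141). With the replicate block 2 were called lower (Mrpl3 and Mrps35; 2.597% of members, against 2.87% of all tested genes) and 0 higher.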
